A study of Mus musculus with 11 samples.

Results

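The 4 arrays of recurrent tumour cells in this mouse mammary cancer series, of 11 arrays in all, were divided by their level of Met RNA, so the members were chosen by the measured Met signal. Arrays with a Met log2 signal above 11 were called Met-high (recurrent 3 and recurrent 4) and those below it Met-low (recurrent 1 and recurrent 2). Because the division used a measured value of the same arrays, every difference between the sides is given as a description, with no test. Every group held cells with the genotype MMTV-rtTA;TetO-Wnt1, in which the MMTV promoter drives the doxycycline-dependent activator rtTA in mammary epithelium and rtTA switches on a Wnt1 transgene. The cells carried the fluorescent histone H2B-eGFP, grew in the mammary site of female nu/nu mice, which lack a thymus and most T cells, and were isolated as GFP-positive cells. The 4 primary arrays hold cells from tumours labelled untreated, and the growth protocol puts the animals on doxycycline. Both the 3 residual arrays, taken 28 days after doxycycline was withdrawn, and the 4 recurrent arrays are labelled Wnt1 inhibition, and no time is given for the recurrent ones. The series title names a single primary source (Wnt1-Prim1), the mouse ages are not given, and separate animals are not stated, so p-values measure only the spread between these arrays, which may be technical.

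Met is the receptor tyrosine kinase for hepatocyte growth factor (HGF), which is normally made by stromal cells and drives epithelial cells to scatter, divide and form tubules. HGF is secreted as a precursor that serine proteases cleave into its active form, and bound Met signals through the adaptors Grb2 and Gab1 to the RAS-MAPK and PI3K pathways. In mammary tumours Met is best known from basal-type cancers and as a receptor that can stand in for another lost growth signal.

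The promoters of Met, of its neighbours Capza2 and St7, which were high on the same arrays, and of the interferon-inducible GTPases Igtp and Irgm1, which were high on them too, are shown because the results below turn on these genes. They are RefSeq sequences of build GRCm38.p6, from 250 bases before to 50 bases after the annotated start, written 5′ to 3′ along the gene. Capitals mark matches on either strand to TGANTCA (AP-1), CACGTG (E-box), CTTTGAT or CTTTGAA (TCF/LEF) and to the interferon response motif. Met lies on the plus strand at chr6:17463707-17464006, Capza2 on the plus strand at chr6:17636760-17637059, and the first of 3 annotated St7 starts on the plus strand at chr6:17693744-17694043. Igtp is on the plus strand at chr11:58199306-58199605 and Irgm1 on the minus strand at chr11:48871371-48871670.
Met: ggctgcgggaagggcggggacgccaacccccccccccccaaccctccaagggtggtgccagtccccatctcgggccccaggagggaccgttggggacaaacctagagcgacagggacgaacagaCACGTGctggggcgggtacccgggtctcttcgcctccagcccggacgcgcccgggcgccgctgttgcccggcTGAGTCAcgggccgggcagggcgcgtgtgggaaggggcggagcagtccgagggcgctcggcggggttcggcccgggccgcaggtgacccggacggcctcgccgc
Capza2: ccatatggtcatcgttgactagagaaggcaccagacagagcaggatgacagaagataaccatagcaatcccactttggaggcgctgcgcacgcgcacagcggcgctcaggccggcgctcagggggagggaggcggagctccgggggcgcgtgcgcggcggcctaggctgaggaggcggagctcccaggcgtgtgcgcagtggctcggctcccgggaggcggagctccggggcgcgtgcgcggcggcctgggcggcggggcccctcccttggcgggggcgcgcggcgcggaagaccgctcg
St7: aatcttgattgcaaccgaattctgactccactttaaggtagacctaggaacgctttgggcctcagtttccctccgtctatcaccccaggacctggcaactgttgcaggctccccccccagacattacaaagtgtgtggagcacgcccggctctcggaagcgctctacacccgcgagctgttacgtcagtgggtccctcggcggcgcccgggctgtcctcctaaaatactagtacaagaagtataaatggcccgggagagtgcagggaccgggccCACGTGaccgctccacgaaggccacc
Igtp: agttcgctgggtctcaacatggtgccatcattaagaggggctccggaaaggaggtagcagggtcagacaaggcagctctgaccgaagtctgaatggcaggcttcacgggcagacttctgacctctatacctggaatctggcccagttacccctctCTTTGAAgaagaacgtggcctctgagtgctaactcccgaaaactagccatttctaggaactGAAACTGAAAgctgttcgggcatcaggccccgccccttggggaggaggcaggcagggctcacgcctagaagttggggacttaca
Irgm1: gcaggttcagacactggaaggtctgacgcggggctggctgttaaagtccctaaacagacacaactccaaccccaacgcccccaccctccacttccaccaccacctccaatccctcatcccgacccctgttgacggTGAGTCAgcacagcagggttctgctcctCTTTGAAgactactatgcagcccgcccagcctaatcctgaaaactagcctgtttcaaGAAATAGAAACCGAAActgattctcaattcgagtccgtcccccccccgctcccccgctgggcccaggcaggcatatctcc
The Met window held 1 AP-1 match and 1 E-box, the St7 window 1 E-box, and the Capza2 window none of the motifs searched. Igtp held 1 interferon response match and 1 TCF/LEF match. Irgm1 held 1 AP-1 match, 1 TCF/LEF match and 2 interferon response matches that overlap in the longest run of capitals. Over all 17724 measured genes with a promoter in the table, the AP-1 letters were found in 8.32%, the E-box in 9.21%, the TCF/LEF letters in 8.88% and the interferon response motif in 3.87%. Among the genes higher on the Met-high arrays by the 2-fold rule given below, 86 had a promoter in the table, of which 18.6% held the AP-1 letters, 11.6% the interferon response motif, 9.3% the E-box and 6.98% the TCF/LEF letters. Of the 81 such genes that were lower, the shares were 11.1%, 4.94%, 9.88% and 4.94% in the same order. The NF-kB motif was held by 6.48% of all promoters, 12.8% of the higher set and 6.17% of the lower set, and the CRE letters TGACGTCA by 2.61%, 3.49% and 2.47%. A match is only a run of letters and says nothing of binding.

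Wnt1 read between 2.89 and 3.26 on the 11 arrays, below the 95th percentile of 1066 olfactory receptor genes (3.96 to 4.38), which served as the level of background. The array therefore does not show the transgene, and the labels alone say which arrays had it on. Among epithelial keratins, Krt8 read 9.38 to 10.16 and Krt18 8.95 to 10.59 on the recurrent arrays, with 10 to 10.15 and 10.13 to 10.56 on the primary arrays. The adhesion protein Epcam was within background on all 4 recurrent arrays (3.32 to 3.45) and on the primary arrays (3.14 to 3.45), and only 13 of 36 epithelial junction genes lay above background. Cdh1 was among the junction genes above background.

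Met was high on recurrent 3 and recurrent 4 and near the primary level on recurrent 1 and recurrent 2. Its log2 signal was 9.23, 8.81, 9.31 and 9.30 on the primary arrays, 7.76, 8.17 and 7.41 on the residual arrays, 9.57 and 9.63 on the Met-low arrays, and 12.44 and 12.46 on the Met-high arrays. The Met-high values were 9.67 and 9.80 times the primary mean, and the Met-low values 1.33 and 1.38 times. No array lay between 9.63 and 12.44, so the limit of 11 fell in an empty stretch. These values chose the arrays and are not a result.

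Genes next to Met on chromosome 6 were high on the same arrays, but over a different stretch on each. Capza2, a subunit of the actin capping protein, read 9.16 and 9.57 on the Met-low arrays and 12.10 and 12.12 on the Met-high arrays, against 9.03 to 9.63 on the primary arrays. St7, described as a tumour suppressor candidate, read 6.70 and 6.47 against 10.72 and 10.96, with 6.29 to 7.02 on the primary arrays. Met, Capza2 and St7 are consecutive in the gene order, and for each of them both Met-high arrays stood clear of all other arrays. Their Met-high means were 9.73, 6.89 and 17.7 times the primary means.

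On the other side of Met, the caveolin genes and Tes were raised on recurrent 3 and much less on recurrent 4. Tes, which codes for a LIM-domain protein of focal adhesions, read 12.60 on recurrent 3 and 9.73 on recurrent 4, with 9.0 and 8.96 on the Met-low arrays and 9.28 to 9.62 on the primary arrays. Cav2 read 12.26 and 10.03 on those arrays, with 9.45 and 9.27 on the Met-low arrays. Cav1, the main coat protein of caveolae, read 12.35 and 11.35, with 10.62 on both Met-low arrays. Relative to the primary mean, recurrent 3 was 8.80 times as high for Tes, 8.20 times for Cav2 and 4.16 times for Cav1, whereas recurrent 4 was 1.21, 1.75 and 2.07 times as high. The predicted genes Gm15473 and Gm4876 of the same stretch were also high on recurrent 3 (7.01 and 9.34) and not on recurrent 4 (3.49 and 6.0).

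Beyond St7 the pattern turned around. Lsm8, a subunit of the U6 snRNA-binding ring, read 11.78 on recurrent 4 and 7.93 on recurrent 3, with 7.83 and 7.63 on the Met-low arrays. Ing3, a chromatin reader of acetyltransferase complexes, read 9.79 on recurrent 4 and 7.03 on recurrent 3, and Fam3c, a secreted factor, 11.87 and 9.15 (both named after their values were seen). Recurrent 4 was therefore 14.4, 8.60 and 6.34 times the primary mean for these 3 genes, and recurrent 3 was 1.01, 1.27 and 0.96 times. Tspan12, which lies between Lsm8 and Ing3, did not rise above the primary arrays on recurrent 4, at 5.87 against 5.69 to 6.44. The other recurrent arrays were lower, at 3.82 and 5.25 on the Met-low side and 4.00 on recurrent 3. Tspan12 was also chosen after the values were seen. Wnt2, Asz1, Cftr and Cttnbp2, between St7 and Lsm8, were within background except Wnt2 on recurrent 4 (4.31 against a 95th percentile of 4.03). Cped1, the neighbour of Ing3, was above the primary arrays (3.64 to 4.22) on all recurrent arrays, at 7.43 and 5.99 on the Met-low side and 6.02 and 10.09 on the Met-high side. DNA copy number was not analysed here.

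**Figure D1:**
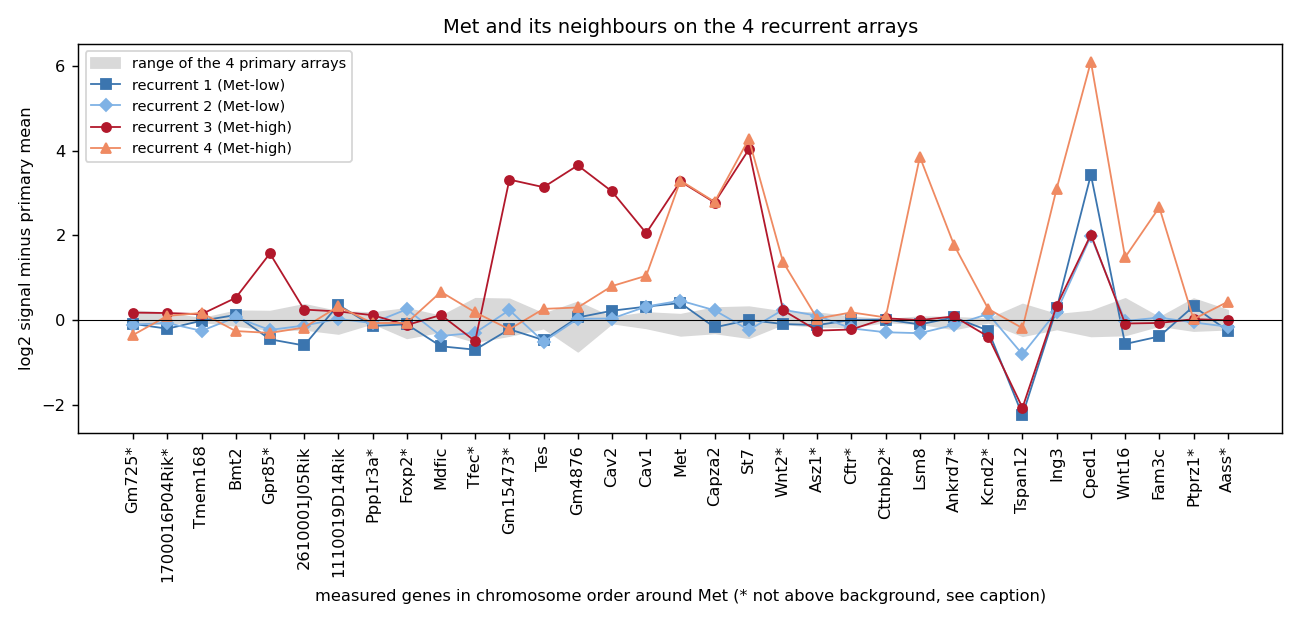
Log2 signal minus the primary mean (y axis) for Met and the 16 measured genes on either side of it in gene order (x axis), with 1 line per recurrent array and the range of the 4 primary arrays in grey; an asterisk marks genes at or under the background level on all but at most 2 arrays. Both Met-high arrays rise over Met, Capza2 and St7, recurrent 3 alone also over Gm15473 to Cav2, and recurrent 4 alone over Lsm8, Ing3 and Fam3c.

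The same search was made along every chromosome, with the median difference from the primary mean in windows of 11 consecutive expressed genes. Windows at least 1 log2 unit from the primary mean numbered 17 of 13464 on recurrent 3 (0.126%) and 40 on recurrent 4 (0.297%), but 2 on recurrent 1 (0.0149%) and 0 on recurrent 2 (0%). Joined where they overlapped, these made 5 stretches on each Met-high array, 1 on recurrent 1 and 0 on recurrent 2. On each Met-high array 1 of the 5 stretches was the one holding Met, whose level chose the arrays. The windows over that stretch therefore come partly with the choice. None was found on any primary array set against the mean of the other primary arrays, and the residual arrays had 6, 6 and 10. Each Met-high array had a second stretch on chromosome 6. On recurrent 3 it was led by Gng11, a G protein gamma subunit, at 11.56 (10.23 on recurrent 4, 8.99 and 9.35 on the Met-low arrays), and the vesicle transport gene Bet1 at 9.89 (7.76, and 7.47 and 7.36). On recurrent 4 it was led by Sdhaf3, an assembly factor of succinate dehydrogenase, at 9.14 (6.83 on recurrent 3, 6.35 and 6.34 on the Met-low arrays). Asns, the asparagine synthetase gene, belonged to it and read 9.78 on recurrent 4, 8.63 on recurrent 3, and 6.97 and 5.62 on the Met-low arrays.

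Each of the other stretches passed the limit on 1 recurrent array. Recurrent 4 was high on chromosome 13 around Serpinb6b, Gmds and Foxf2, where Gmds, an enzyme of GDP-fucose synthesis, read 9.17 against 7.46 to 8.0 on the other recurrent arrays. It was high over the protocadherin beta cluster, where Pcdhb13 read 6.96 against 5.09 to 5.44, and the residual arrays were also high there (6.42 to 7.95). It was low on chromosome 5 over chemokine and EGF-ligand genes, where Cxcl3 read 3.72 against 5.54 to 6.95, and the residual arrays were again on the same side (2.73 to 4.98). Recurrent 3 was low over stretches of chromosomes 2 and 5 holding Sqor, Tmem230 and Adam22, with Tmem230 at 6.81 against 7.91 to 8.07 on the other recurrent arrays. On recurrent 1 the stretch lay on chromosome 1 around Sertad4 (8.84), which was as high on recurrent 2 (8.92) and on the residual arrays (8.52 to 9.76). With windows of 21 genes, only the chromosome 13 stretch of recurrent 4 remained of the 11, and why the others were lost was not tested.

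Among genes of the Met pathway itself, the ligand Hgf was high with its receptor. Hgf read 3.93 and 4.38 on the Met-low arrays and 7.19 and 6.36 on the Met-high arrays, with 3.23 to 4.56 on primary arrays and 3.49 to 4.15 on residual ones. Both Met-high arrays were above all others, and the Met-high mean was 6.14 times the Met-low mean. Hgf was the single member set apart of 12 measured ligands, activators and inhibitors. By the 2-fold rule given below, 0.503% of all genes were higher and 0.499% lower. The sides did not overlap in 3 of the 12 upward and 2 downward, against 18.2% and 19% of all genes. The proteases that cleave pro-HGF, Hgfac, St14 and Hpn, and the inhibitor Spint1 stayed between 3.23 and 4.50 on the recurrent arrays, at or near background. Plau, the urokinase gene, read 8.37 and 8.80 on the Met-low and 10.11 and 9.76 on the Met-high arrays, a gap of 0.95 between the nearest arrays that is just under 2-fold. The related receptor Mst1r and its ligand Mst1 were within background on all 4 recurrent arrays.

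Of 33 measured co-receptors, adaptors and negative regulators of Met, Spsb1 was higher and Timp3 lower by the 2-fold rule, where 0.503% and 0.499% of all genes were. The sides did not overlap in 7 of the 33 upward and 11 downward, against 18.2% and 19% of all genes. Spsb1, a SOCS-box protein that binds Met, read 6.81 and 7.81 on the Met-low arrays and 8.96 and 8.91 on the Met-high arrays, above the primary range of 7.23 to 7.46. Timp3, an inhibitor of the metalloproteinases that shed Met, read 11.40 and 10.80 against 9.74 and 9.30, the latter like the primary arrays (9.11 to 9.76). The adaptor Gab1 did not part the sides, at 7.19 and 6.66 against 7.29 and 6.97, although all 4 values were above the primary arrays (5.27 to 6.05). Macc1, a regulator known for driving Met transcription, read 4.31 and 5.74 on the Met-low and 8.49 and 7.28 on the Met-high arrays, against 4.98 to 5.97 on the primary arrays; it was picked after its values were seen. Of 30 genes listed as responding to Met, Mmp13 and Il1rl1 were higher and none was lower by the 2-fold rule (0.503% and 0.499% of all genes). The sides did not overlap in 9 of the 30 upward and 8 downward, against 18.2% and 19% of all genes. The collagenase Mmp13 read 4.00 and 3.33 against 6.08 and 8.30, and the Met-low values were under the primary range of 4.67 to 5.86. The list's median difference between sides was -0.25, beside -0.00 over all genes, so most of its members were not higher on the Met-high arrays.

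Across all 23835 genes, 120 were at least 2-fold higher on both Met-high arrays than on either Met-low array (0.503%), and 119 were at least 2-fold lower (0.499%). This rule takes the nearest arrays of the 2 sides, and genes that pass it are called apart below. Without the size condition, the sides did not overlap for 18.2% of genes with the Met-high arrays higher and for 19% with them lower. The genes just inside the size limit were Scml4 and Gas7 (both 1.00 log2 unit) and those just outside Btc and Tfpi2 (both 0.99). Leaving out recurrent 1, 2, 3 or 4, which leaves 1 array on its side and so asks less of a gene, gave 249, 337, 349 and 421 higher and 280, 424, 290 and 333 lower genes, which contained the 120 and the 119 each time.

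The sides differed from each other somewhat more than their own arrays did. Between the Met-high arrays 1118 genes differed at least 2-fold, between the Met-low arrays 997, and across the sides 1214 to 1705. Pairs of primary arrays differed in 399 to 702 genes and pairs of residual arrays in 1060 to 1324. The 2 Met-high arrays therefore differed more than primary arrays did, and about as much as residual or Met-low arrays. Set against the primary mean, 716, 461, 704 and 641 genes were at least 2-fold higher and 538, 423, 601 and 482 lower on recurrent 1 to recurrent 4, so neither side was consistently nearer to the primary cells.

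**Figure D2:**
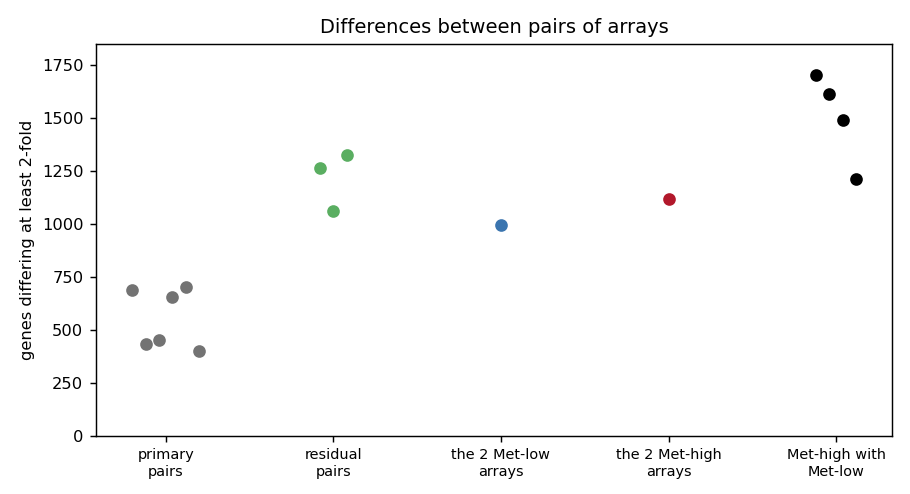
Number of genes that differ at least 2-fold (y axis) between 2 arrays, with 1 point per pair, for pairs of primary arrays, of residual arrays, the Met-low pair, the Met-high pair and the 4 pairs of a Met-high with a Met-low array (x axis). The pairs across the sides (1214 to 1705) lie above the Met-low pair (997) and the Met-high pair (1118).

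Of the 120 higher genes, 58 (48.3%) were at least 2-fold above all 4 primary arrays on the Met-high side and not on the Met-low side. Met, St7, Acta2 and Entpd1 were among them. Of all genes, 0.726% were above the primary arrays on the Met-high side and 0.466% on the Met-low side, whatever the other side did. Another 5 were at least 2-fold below all primary arrays on the Met-low side alone, among them Tnc, where 0.319% of all genes were below on that side. In 4 genes, Col1a1, Rcn3, Ddr2 and Il1rl1, both sides were above the primary arrays and the Met-high side further so. Of the 119 lower genes, 37 (31.1%) were below all primary arrays on the Met-high side alone (0.571% of all genes were below on that side), among them Lcn2, S100a8 and Stfa3, and 15 (12.6%) were above them on the Met-low side alone, among them Inmt, Sned1 and Scara5. In 52 of the higher and 63 of the lower genes neither side was 2-fold outside the primary arrays. Each share of all genes here also counts genes that were outside the primary arrays on both sides. The 120 and 119 genes were chosen by a wide gap between the sides, so larger shares among them come with that choice. These counts describe the arrays and carry no test.

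**Figure D3:**
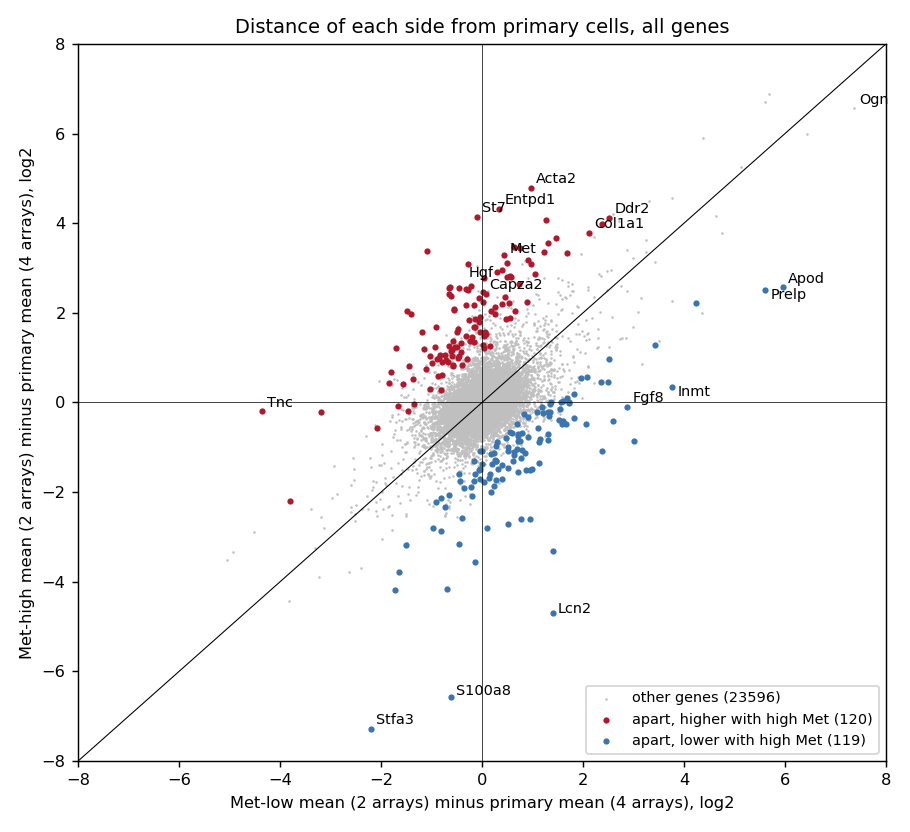
Met-low mean minus primary mean (x axis) against Met-high mean minus primary mean (y axis), both in log2 units, with 1 point per gene and the diagonal where the sides are equal. Red points are the 120 genes apart and higher with high Met and blue points the 119 lower ones. St7 rises on the vertical axis alone, and Acta2 rises mostly on it (4.79, with 0.97 on the horizontal axis). Lcn2 and S100a8 fall on the vertical axis, Prelp and Apod are raised more on the Met-low side, and Ogn is raised on both.

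Outside the Met stretch, the widest gaps upward were those of Acta2, Moxd1 and Entpd1. Acta2, smooth muscle actin and a marker of myoepithelial cells and myofibroblasts, read 6.70 and 6.62 on the Met-low arrays and 11 and 9.96 on the Met-high arrays, with 5.52 to 5.76 on primary arrays and 7.72 to 8.51 on residual ones. The Met-high arrays were thus above all others, and their mean was 14.1 times the Met-low mean. Other contractile genes, picked after their values were seen, did not follow on both arrays: Cnn1 read 7.50 on recurrent 3 but 3.90 on recurrent 4, Tagln 5.26 and 4.68, and Myh11 4.01 on both. Of 27 basal and myoepithelial markers Acta2 was the 1 apart, and of 11 pericyte and smooth muscle markers 0 were. Among all genes 0.503% were apart and higher. In the basal list the sides did not overlap in 9 upward and 9 downward, against 18.2% and 19% of all genes.

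Moxd1, a copper-dependent monooxygenase relative, read 4.19 and 6.84 on the Met-low arrays and 9.98 and 9.97 on the Met-high arrays. The residual arrays were nearly as high (9.26 to 9.57), while the primary arrays (6.36 to 6.82) were close to recurrent 2 and above recurrent 1. Entpd1, the ectoenzyme CD39 that breaks down extracellular ATP, read 3.97 and 4.98 against 8.82 and 8.09, and all primary and residual arrays were at 3.47 to 4.61. Il2rg, the common gamma chain of interleukin receptors, read 5.56 and 5.95 against 8.59 and 9.38, above the primary range of 5.95 to 7.12. Il15, a cytokine that signals through that chain, read 4.65 and 4.24 against 6.70 and 6.46, with 2.69 to 3.90 on the primary arrays (named after its values were seen). Papss2, which makes the sulphate donor for matrix glycans, read 3.51 and 3.69 against 6.55 and 5.90. Arxes2 and the histone gene H3c15 also belonged to the 12 widest gaps. H2-Q7, a class I-like gene, and H3c15 have near-identical copies, so their signals may mix several genes.

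The widest gaps of all were those of Lcn2 and S100a8, both lower on the Met-high arrays. Lcn2, the iron-siderophore binding protein lipocalin 2, read 10.14 and 11.70 on the Met-low arrays and 5.07 and 4.60 on the Met-high arrays, with 8.98 to 10.03 on primary arrays and 7.73 to 10.31 on residual ones. Only the Met-high arrays were low, by 68.0-fold from the Met-low mean. S100a8, a subunit of the calprotectin dimer of neutrophils and inflamed epithelium, read 11.81 and 10.51 against 6.04 and 4.34, and its partner S100a9 read 6.04 and 6.48 against 3.16 and 3.96. The primary arrays read 11.51 to 12.03 and 5.89 to 7.28, so the Met-high arrays were below them in both genes. Stfa3, a stefin protease inhibitor with near-identical copies, read 8.88 and 7.25 against 3.32 and 2.65, with 9.83 to 10.74 on the primary arrays. Saa3, an acute-phase apolipoprotein chosen after its values were seen, read 6.26 and 8.96 against 4.17 and 4.30.

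Neutrophils are a known source of S100a8, S100a9, Lcn2 and stefins. Of 16 measured neutrophil markers 3 were apart and lower (S100a8, S100a9 and Stfa3) and 0 were higher, where 0.499% and 0.503% of all genes were. The sides did not overlap in 1 upward and 5 downward, against 18.2% and 19% of all genes. The list's mean was 4.36 and 4.40 on the Met-low arrays, 3.51 and 3.35 on the Met-high arrays, 4.44 to 4.64 on primary arrays and 3.61 to 3.90 on residual ones. Its median difference between sides was only -0.14, so the lower mean rested mostly on few members. Above background on any recurrent array were 7 of the 16. The defining markers Ly6g and Mpo lay within or near background on all 11 arrays (2.89 to 3.36 and 3.56 to 4.34), so no difference could be read from them, and the part of neutrophils was not tested. In RNA from sorted cells, fewer cells of a type and less RNA per cell cannot be told apart.

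Plet1, a progenitor marker of placenta and skin epithelium, read 11.52 and 10.74 on the Met-low arrays and 6.98 and 5.81 on the Met-high arrays, with 9.34 to 10 on the primary arrays. Klk8, a kallikrein protease, read 8.34 and 7.81 against 4.54 and 4.49. Gstt1, a glutathione transferase, read 7.80 and 8.20 against 4.56 and 4.51, with 7.98 to 9.06 on the primary and residual arrays. Podxl, a sialomucin of the apical membrane, read 6.92 and 6.86 against 4.01 and 3.95. Serpine2, an inhibitor of thrombin and urokinase, read 10.29 and 10.93 against 8.0 and 6.39, with 10.56 to 10.87 on all primary and residual arrays. Cdh1, the epithelial cadherin, was the member apart of 36 junction genes, at 6.41 and 7.36 against 5.34 and 4.84, with 6.33 to 6.64 on the primary arrays. Among all genes 0.499% were apart and lower. In the junction list the sides did not overlap in 2 upward and 9 downward, against 18.2% and 19% of all genes. For Gstt1 and Serpine2 the Met-high arrays were far below all other arrays of the series.

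**Figure D4:**
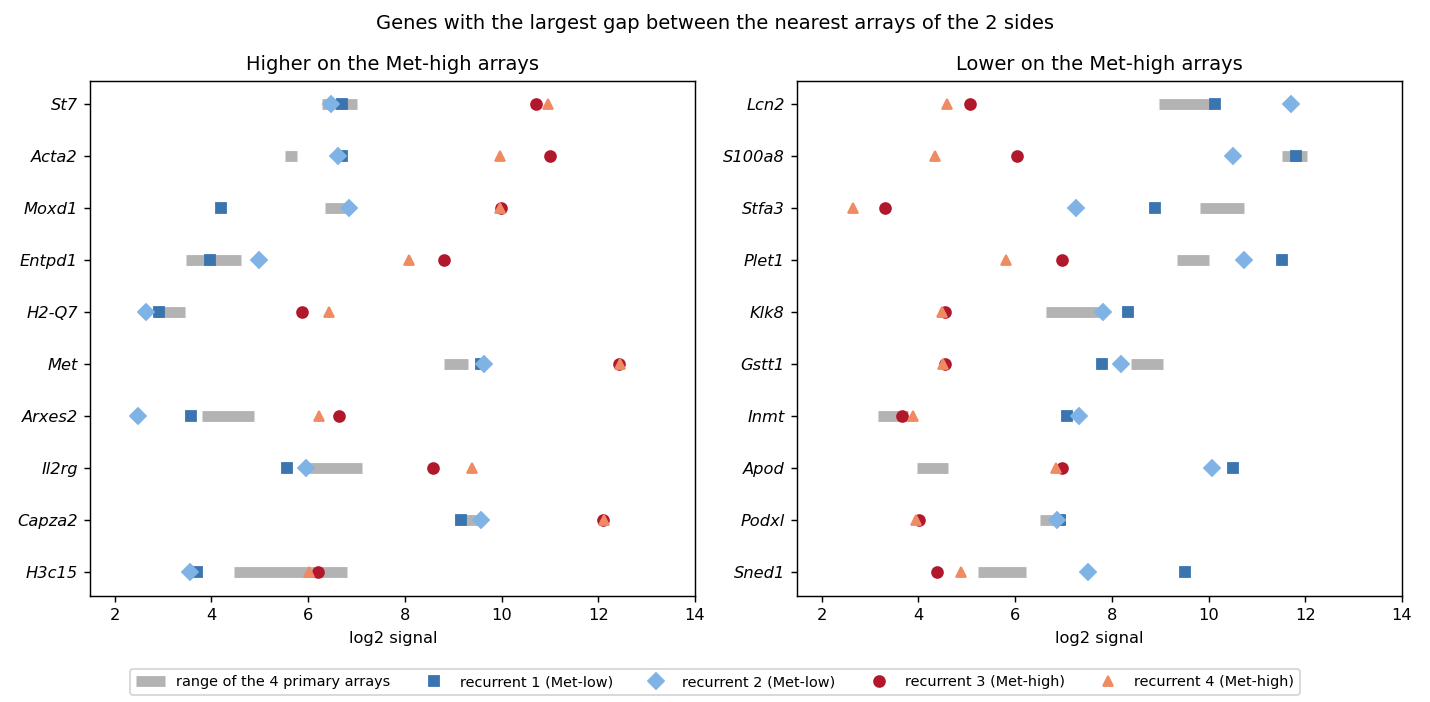
Log2 signal (x axis) of the 10 genes with the widest gap between the sides in each direction (y axis), with 1 symbol per recurrent array and the range of the 4 primary arrays as a grey bar. Red and orange symbols are the Met-high arrays and blue ones the Met-low arrays; for St7, Acta2 and Entpd1 the Met-high symbols leave the primary bar upward, for Lcn2, S100a8 and Gstt1 downward, and for Inmt, Apod and Sned1 the Met-low symbols lie above it.

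Most genes of the list of interferon-stimulated genes were higher on the Met-high arrays. Interferons are cytokines that switch on antiviral proteins, GTPases and antigen-processing genes. Of 37 measured interferon-stimulated genes, 31 had both Met-high arrays above both Met-low arrays and 0 the reverse, where 18.2% and 19% of all genes did so. Only 3 passed the 2-fold rule, all higher, where 0.503% of all genes did, and the list's median difference was 0.83, beside -0.00 over all genes. Rtp4 read 5.51 and 5.53 on the Met-low arrays and 8.17 and 7.10 on the Met-high arrays. Bst2, tetherin, which holds virions on the cell, read 6.51 and 6.74 against 8.79 and 8.01, and Ifi44 3.78 and 3.76 against 6.77 and 4.98.

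Against the primary arrays, 27 of the 37 genes had both Met-high arrays above all 4 primary arrays, where 10.4% of all genes did. The Met-low arrays were above all primary arrays in 7 genes and below them in 7, where 10.9% and 13.3% of all genes were. The list's mean was 5.93 and 5.97 on the Met-low arrays, 6.97 and 6.60 on the Met-high arrays, 5.84 to 6.07 on primary arrays and 5.65 to 5.84 on residual ones. The difference therefore lay in the Met-high arrays and was larger on recurrent 3. Macrophages are another source of such transcripts, and 0 of 28 macrophage markers were apart, with a median difference of 0.48. The sides did not overlap in 4 of these markers upward and 2 downward, against 18.2% and 19% of all genes. Ms4a7, a membrane protein of macrophages, read 5.71 and 6.64 on the Met-low and 7.03 and 8.54 on the Met-high arrays, with 6.50 to 8.05 on the primary arrays. The list's mean was 5.34 and 6.07 on the Met-low arrays and 5.65 and 6.62 on the Met-high arrays, with 5.86 to 6.69 on the primary arrays, and the part of macrophages in the interferon difference was not tested.

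Over the 11 arrays, and among 2300 genes with a range of at least 2 log2 units, the 8 genes with the highest Pearson r with Met were Igtp (0.95), Plcg2 (0.93), Cav1 (0.93), Iigp1 (0.92), Lancl3 (0.91), Capza2 (0.90), Glipr1 (0.90) and Psmb9 (0.90). These correlations use the Met values that chose the arrays and carry no test or separate support. Igtp, whose promoter is shown above, read 6.75 and 6.72 on the Met-low arrays and 8.92 and 7.99 on the Met-high arrays, with 6.27 to 6.62 on primary arrays and 5.88 to 6.08 on residual ones. Iigp1, of the same GTPase family, read 5.98 and 7.35 against 10.26 and 9.50. Irgm1 and Irgm2, named after their values were seen, read 6.89 and 6.80 against 8.50 and 7.96, and 6.34 and 6.32 against 7.43 and 7.45. Psmb9, a subunit of the immunoproteasome, read 9.25 and 9.87 against 10.56 and 10.65. The class I heavy chain H2-K1 and Ifi47, likewise seen first, read 7.92 and 8.11 against 9.15 and 9.25, and 6.73 and 7.53 against 9.37 and 9.34. Not every interferon-inducible gene lay on that side. Ifi205, also seen first, was apart and lower, at 6.44 and 6.20 on the Met-low and 4.24 and 4.45 on the Met-high arrays. The primary arrays read 4.53 to 6.77 for it.

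Sterol synthesis, hypoxia and glycolysis genes parted the arrays in another way, with the Met-low side below the primary level. Of 24 measured cholesterol synthesis genes, 22 had both Met-high arrays above both Met-low arrays and 0 the reverse. Among all genes 18.2% and 19% did so, and the list's median difference was 0.85. The Met-low arrays were below all 4 primary arrays in 18 of the 24, where 13.3% of all genes were, and the Met-high arrays in 4 (13.5% of all genes). The list's mean was 6.90 to 7.31 on the primary arrays, 5.99 and 6.38 on the Met-low arrays, 7.06 and 7.11 on the Met-high arrays and 6.11 to 6.23 on the residual arrays. Msmo1, a sterol methyl oxidase, read 7.11 and 7.22 against 8.51 and 8.39, and the sterol carrier Stard4 4.70 and 5.20 against 6.62 and 6.21. For these genes the Met-high arrays were nearer to the primary arrays and the Met-low arrays nearer to the residual ones.

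The hypoxia list had 4 of 27 measured members apart, all higher, where 0.503% of all genes were. The sides did not overlap in 16 upward and 3 downward, against 18.2% and 19% of all genes. Car9, a carbonic anhydrase induced at low oxygen, read 3.34 and 3.73 on the Met-low arrays, within background, and 8.17 and 5.04 on the Met-high arrays. Bnip3, a mitophagy receptor, read 6.89 and 7.18 against 8.97 and 8.69, above the primary range of 7.19 to 8.05. Plod2, a collagen lysyl hydroxylase, read 6.93 and 7.84 against 9.34 and 9.57, with 8.29 to 8.54 on the primary arrays. Ankrd37 read 4.75 and 5.64 against 6.96 and 7.22. The list's median was 0.06 relative to the primary mean on the Met-high side and -0.60 on the Met-low side. Vegfa, a target of the same response, did not join, at 10.35 and 10.15 against 9.82 and 9.98.

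Of 18 measured glycolysis enzymes 0 were apart, 12 had the Met-high arrays above the Met-low arrays and 3 below (18.2% and 19% of all genes did so), and the median difference was 0.46. Pfkp, a phosphofructokinase, read 7.01 and 6.57 on the Met-low arrays and 7.75 and 9.05 on the Met-high arrays, with 8.45 to 9.15 on the primary arrays. The lactate exporter Slc16a3 read 4.21 and 3.77 against 5.16 and 5.86. The Met-low arrays were below all primary arrays in 10 of the 18 enzymes and the Met-high arrays in 3, where 13.3% and 13.5% of all genes were. The list's mean was 7.10 to 7.30 on the primary, 6.29 to 6.38 on the residual, 6.45 and 6.71 on the Met-low and 7.07 and 7.10 on the Met-high arrays.

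**Figure D5:**
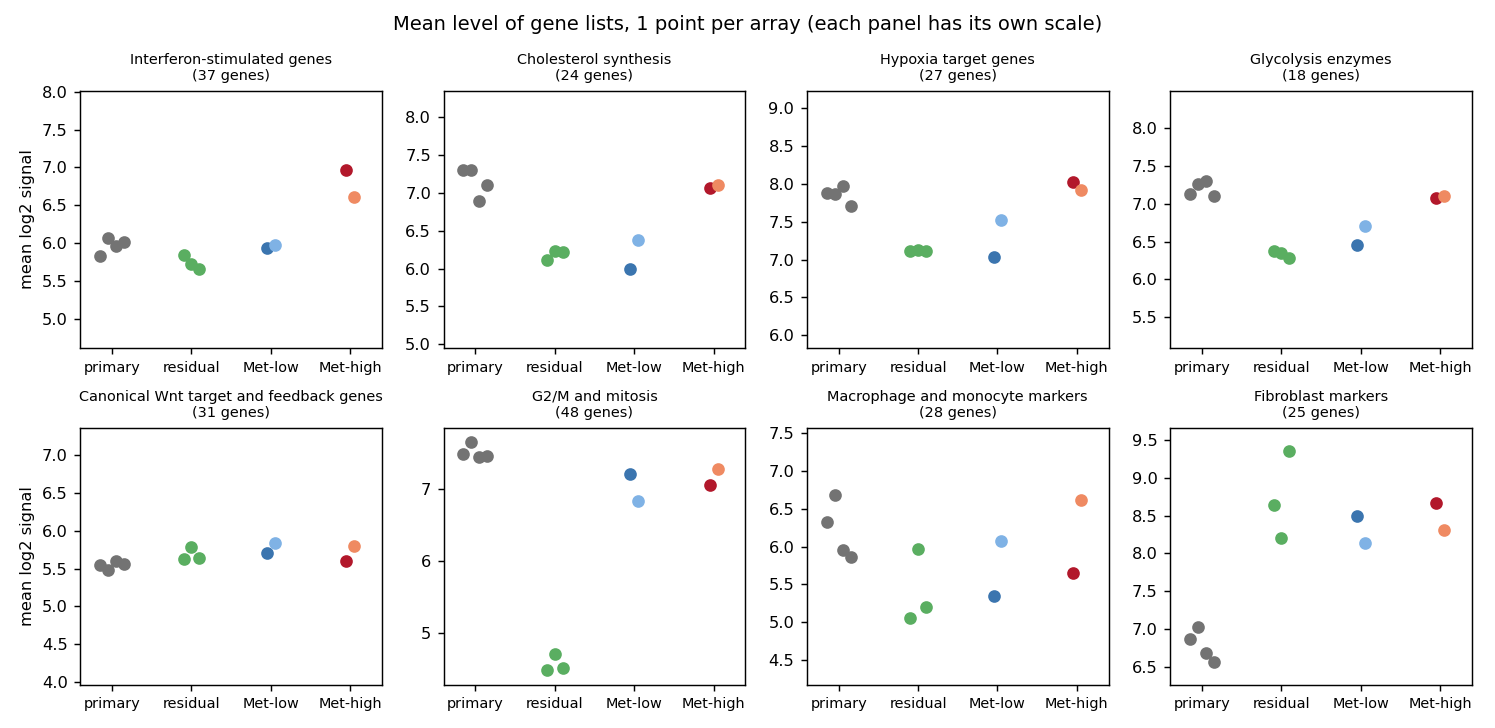
Mean log2 signal over the members of 8 gene lists (y axis, each panel on its own scale), with 1 point per array in the primary, residual, Met-low and Met-high columns (x axis). The interferon list is raised on the Met-high arrays alone (6.97 and 6.60), the cholesterol and glycolysis lists are lower on the residual and Met-low arrays, and the fibroblast list is higher on all residual and recurrent arrays than on the primary ones.

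Of 48 G2/M and mitosis genes 0 were apart, 11 had the Met-high arrays above the Met-low arrays and 3 below, where 18.2% and 19% of all genes did so, and the list's mean was 7.21 and 6.84 on the Met-low and 7.06 and 7.28 on the Met-high arrays, with 7.45 to 7.66 on primary arrays and 4.48 to 4.71 on residual ones. Of 46 S phase genes 0 were apart by the 2-fold rule, but 19 had the Met-high arrays above the Met-low arrays and 4 below, against the same shares of all genes, and the median difference was 0.16. Cdc6, which loads the replicative helicase, read 4.83 and 4.65 against 5.70 and 5.46. Mybl2, a cell-cycle transcription factor, read 5.0 and 4.77 against 5.68 and 6.34, with 5.58 to 6.06 on the primary arrays. All 4 recurrent arrays were far above the residual arrays in the mitosis list.

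In none of the lists of 31 canonical Wnt targets and feedback genes, 25 Wnt ligands and R-spondins, and 13 secreted inhibitors was a member apart, and the median differences were -0.01, 0.09 and -0.01. Notum, a secreted deacylase of Wnt proteins, read 7.90 on recurrent 1, 5.61 on recurrent 2 and 4.95 and 4.93 on the Met-high arrays, with 4.93 to 5.47 on the primary arrays, so it was high on 1 Met-low array. Sox9, a progenitor transcription factor, read 10.06 and 10.18 against 9.17 and 8.91. Sfrp1, a Wnt-binding inhibitor, was below the primary range of 7.22 to 7.60 on both sides, at 6.57 and 6.51 against 5.66 and 4.73.

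Of 55 receptor tyrosine kinases Ddr2 and Ephb2 were apart and higher, beside Met, which is not in that list, and Flt1 was lower. Among all genes 0.503% were apart and higher and 0.499% apart and lower. The sides did not overlap in 10 of the 55 upward and 12 downward, against 18.2% and 19% of all genes. Ddr2, a collagen receptor, read 7.02 and 6.61 on the Met-low arrays and 8.36 and 8.47 on the Met-high arrays, and all 4 were above the primary (3.79 to 4.85) and residual arrays (4.37 to 5.41). Ephb2, a receptor for ephrin-B ligands, read 5.53 and 5.23 against 8.39 and 6.87. Flt1, a receptor and decoy for VEGF, read 7.83 and 7.97 against 5.06 and 6.74, with 6.15 to 6.62 on the primary arrays.

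Of 61 measured ligands of such receptors 3 were apart and lower on the Met-high side and 1, Hgf, was higher, where 0.499% and 0.503% of all genes were. The sides did not overlap in 9 upward and 13 downward, close to the 18.2% and 19% of all genes. Fgf8, an FGF known as an insertion target of mouse mammary tumour virus, read 6.80 and 5.74 on the Met-low arrays, and 3.73 and 2.85 on the Met-high arrays, 3.09 to 3.75 on primary arrays and 3.08 to 3.45 on residual ones, all within background. It was thus above background on the Met-low arrays alone, and it was the 1 member apart of 32 mammary insertion and amplification oncogenes. In that oncogene list the sides did not overlap in 3 upward and 6 downward, against 18.2% and 19% of all genes. Kitl, the ligand of Kit, read 8.70 and 7.83 against 6.04 and 6.27, with 7.35 to 8.25 on the primary arrays. Gas6, the ligand of Axl, read 9.54 and 8.77 against 6.51 and 7.67.

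Of 30 genes of RAS-MAPK output and feedback, Etv1 was apart and lower, where 0.499% of all genes were. The sides failed to overlap in 2 genes upward and 13 downward, against 18.2% and 19% of all genes. Etv1, an ETS factor, read 9.96 and 9.83 on the Met-low arrays and 8.35 and 8.70 on the Met-high arrays, with 9.55 to 10.10 on the primary arrays. Dusp6, a phosphatase that limits ERK, read 10.85 and 10.45 against 10.81 and 10.56 and did not separate. The list's median difference was -0.22. Most of these genes were therefore not higher where Met RNA was.

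Of 52 measured matrix genes 3 were apart and higher, the collagens Col1a1 and Col5a2 and tenascin C, and 3 were apart and lower, Fmod, Prelp and Comp, where 0.503% and 0.499% of all genes were. The sides did not overlap in 19 upward and 8 downward, against 18.2% and 19% of all genes. Tnc, a glycoprotein of remodelling stroma, read 4.84 and 7.08 on the Met-low arrays and 11.13 and 9.13 on the Met-high arrays, with 10.02 to 10.51 on primary arrays and 10.68 to 11.33 on residual ones. Recurrent 3 was near the primary and residual level, recurrent 4 somewhat under it, and the Met-low arrays far below. Col1a1 read 8.31 and 8.11 against 9.82 and 9.95, and all were above the primary arrays (5.13 to 6.99). Enzymes that modify collagen were seen to lie on the same side after their values were known: Plod1 read 7.54 and 7.86 against 8.93 and 9.02, and Fkbp10 5.55 and 5.38 against 6.76 and 7.53.

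Among small leucine-rich proteoglycans, Prelp and Fmod were lower on the Met-high arrays, Bgn was higher without being apart (12.03 and 12 against 12.81 and 12.53), and Lum overlapped (9.40 and 7.15 against 8.30 and 7.30); Bgn and Lum were picked after their values were seen. Prelp, which anchors basement membrane to connective tissue, read 10.94 and 10.83 on the Met-low arrays and 6.68 and 8.87 on the Met-high arrays, with 4.81 to 6.07 on primary arrays and 10.56 to 11.32 on residual ones. Fibromodulin (Fmod), which regulates collagen fibrils, read 7.27 and 7.35 against 5.05 and 5.27, with 3.42 to 4.27 on primary arrays and 8.97 to 11.04 on residual ones. Apod, a lipid carrier that marks quiescent cells, had the same shape, at 10.50 and 10.08 against 6.96 and 6.84, with 3.97 to 4.62 on primary arrays and 9.21 to 11.09 on residual ones. Prelp, Fmod and Apod were highest in residual or Met-low cells and intermediate on the Met-high arrays. Inmt, a methyltransferase, read 7.08 and 7.33 against 3.67 and 3.88, and Sned1, a matrix protein, 9.50 and 7.50 against 4.39 and 4.89.

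Of 35 measured chemokines and cytokines 4 were apart, all lower (Ccl7, Cx3cl1, Ccl2 and Tslp), where 0.499% of all genes were. The sides did not overlap in 5 upward and 14 downward, against 18.2% and 19% of all genes, and the list's median difference was -0.26. The chemokine Cxcl11, outside the list and seen first, was apart and higher, at 3.75 and 3.64 on the Met-low and 5.16 and 5.03 on the Met-high arrays. Ccl2, which attracts monocytes, read 11.90 and 11.70 on the Met-low arrays and 10.23 and 10.62 on the Met-high arrays, the latter within the primary range of 9.95 to 11.04. Its relative Ccl7 read 11.85 and 11.17 against 9.78 and 9.80, with 9.30 to 10.59 on the primary arrays. For both genes it was the Met-low side that stood above the primary arrays. Cx3cl1, a membrane-bound chemokine, read 9.35 and 8.90 against 7.61 and 7.53, with 6.54 to 6.68 on the primary arrays.

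In the TGF-beta and BMP list of 40 genes, Inhba was apart and higher and Id1 lower, where 0.503% and 0.499% of all genes were. The sides did not overlap in 7 of the 40 upward and 8 downward, against 18.2% and 19% of all genes. Inhba, which codes for the activin A subunit, read 8.27 and 8.18 on the Met-low arrays and 9.97 and 10.79 on the Met-high arrays, with 6.57 to 7.33 on the primary arrays. Id1, a BMP-induced inhibitor of differentiation, read 9.42 and 9.29 against 7.25 and 6.95, with 8.14 to 8.92 on the primary arrays. The 2 genes left the primary range in opposite directions on the Met-high arrays. Fstl1, a secreted BMP-binding protein, read 7.82 and 8.39 against 10.47 and 10.11, the latter at the level of the residual arrays (10.12 to 10.84).

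The mean of 25 fibroblast markers was 8.49 and 8.13 on the Met-low and 8.66 and 8.31 on the Met-high arrays, all above the primary arrays (6.56 to 7.02). Of these markers 1 was apart and higher, where 0.503% of all genes were. The sides did not overlap in 6 upward and 0 downward, against 18.2% and 19% of all genes. Among 23 endothelial markers Ecscr was apart and higher (4.34 and 5.14 against 6.41 and 8.73) and Flt1 lower, where 0.503% and 0.499% of all genes were. In this list the sides did not overlap in 2 upward and 7 downward, against 18.2% and 19% of all genes. The endothelial list's mean stayed at 4.02 to 4.27 on the recurrent arrays. Cdh5, the endothelial cadherin, was picked after its values were seen: it read 10.13 on recurrent 3 and 4.66 to 5.09 on the other recurrent arrays. The immunoglobulin genes Igkc and Ighm read 6.59 and 6.64 on recurrent 2 and 3.36 to 4.82 on the other recurrent arrays. In the lists of 24 lymphocyte, 17 adipocyte and 17 skeletal muscle markers 0 were apart. The macrophage list is given beside the interferon genes. The part of these cells in the differences between the sides was not tested.

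Kept as the 1 group that the labels define, the 4 recurrent arrays were compared with the primary arrays by limma. At an adjusted p under 0.05 (Benjamini-Hochberg), 195 genes were higher (0.818%) and 235 lower (0.986%), which fell to 100 and 107, 107 and 118, 101 and 110, or 99 and 104 without primary 1, 2, 3 or 4. Of the 120 genes apart and higher, 7 were called (5.83%), 6 of them higher, and of the 119 apart and lower 8 were called (6.72%), 4 of them higher. By construction a wide gap between the sides widens the spread within the recurrent group that this test uses. Ddr2 rose by 3.32 log2 units (SE 0.42, limma adjusted p = 0.00198) and Il1rl1, the receptor of interleukin 33, by 3.18 (SE 0.52, limma adjusted p = 0.00985), with all 4 recurrent arrays above all 4 primary arrays. Comp, a cartilage matrix protein, rose (limma adjusted p = 0.00985) from primary values within background (3.27 to 3.91), further on the Met-low side (7.63 and 8.01) than on the Met-high side (6.29 and 5.30). Htr1b, a serotonin receptor, fell by 3.01 (SE 0.36, limma adjusted p = 0.00147), further on the Met-low side (4.69 and 4.49) than on the Met-high side (6.10 and 6.25). Against the residual arrays 854 genes were higher (3.58%) and 523 lower (2.19%), which fell to 572 and 364 without residual 2.

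What the sides shared was a set of large changes from primary cells. All 4 recurrent arrays were at least 2-fold above all 4 primary arrays in 59 genes (0.248%) and below them in 48 (0.201%). The genes named here were picked after their values were seen. Mme, the cell-surface peptidase neprilysin, read 10.46 and 10.32 on the Met-low and 10.28 and 10.77 on the Met-high arrays against 4.77 to 5.77 on the primary arrays, a rise of 5.19 (SE 0.20, limma adjusted p = 3.5e-07). Ogn, osteoglycin, read 10.45 and 9.76 against 8.92 and 9.66, with 2.09 to 3.45 on the primary arrays (limma adjusted p = 2.73e-05); the primary values were within background, so no size is given. Nkd2, a feedback inhibitor of Wnt signalling, read 7.42 and 8.01 against 8.23 and 8.79, with 3.65 to 4.27, at or near background, on the primary arrays (limma adjusted p = 1.18e-05). The receptor tyrosine kinase Erbb2 read 6.84 and 7.48 against 6.93 and 7.14, with 9.44 to 9.85 on the primary arrays, and fell by 2.59 (SE 0.17, limma adjusted p = 2.33e-05). In these 4 genes the Met-high and Met-low values were interleaved or close, unlike Met itself.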

How the data were processed

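RNA of 11 samples was measured on 1 Affymetrix array each. The authors deposited 1 table of log2 signals for 24479 probe sets, made with RMA and R 3.0.2 per the submitters' processing notes; RMA subtracts background, equalises the arrays and combines probes, which compresses differences between dim signals. Which annotation the probe sets followed is not stated in those notes. The deposited signals, 1.10 to 13.34, entered unchanged; the number of arrays limits the precision.

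Through the platform's probe annotation, 23281 probe sets had a name and another 556 were named through the Entrez identifier in the RefSeq gene table of GRCm38.p6, which also gave the gene order. The other 642 were unnamed, of which 3 were apart and higher and 1 lower. This left 23835 genes. Promoters came from RefSeq. Of 1158 entries in 39 gene lists 1153 were measured.

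Sides were described, not tested. Tests between the labelled groups used limma 3.58.1 under R 4.3.3 (3 groups, 8 residual and 3.46 prior degrees of freedom), and these steps were tested on simulated data. Replicate numbers did not pair the arrays (correlations of same-numbered deviations from -0.08 to 0.02). Named were Met and Wnt1, the 12 widest gaps in each direction above background, up to 4 members per list, the neighbours of Met, the 8 genes most like it and the genes leading each stretch; others are said to be picked later, some genes that the rule names are not reported here, and Gab1, Dusp6, Vegfa and Krt8, Krt18 and Epcam were also picked with their values seen. The sides, members and lists were chosen with earlier results of these data known. Alternatives were centring, a second quantile normalization, background filters, other gaps, windows and thresholds, a replicate block, moderation with a trend, a fit on 2 groups, and leaving out each array. Figures used Python 3.11.15 and matplotlib 3.10.9.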

Additional observations from a re-analysis of the deposited data

Results flagged for a closer look

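Among 372 groups of 4 arrays (186 named genes in the primary and in the recurrent group), 20 held 1 array whose distance from the nearest other passed Dixon's limit of 0.829 for 4 values. Chance alone marks about 5% of groups. Some of these genes were named because they led a stretch on 1 array, or after their values were seen. For them a lone array comes with the choice, so the 5% is no yardstick. For Met it was primary 2, at 8.81 against 9.23 to 9.31 on the other primary arrays. On the recurrent arrays the single high array was recurrent 3 for Gm15473 (7.01) and Gm4876 (9.34) before Met, and recurrent 4 for Lsm8 (11.78), Ing3 (9.79) and Fam3c (11.87) beyond it. Recurrent 3 also stood alone for Bet1 (9.89), Tmem230 (6.81), the muscle gene Tnnt3 (6.61) and the endothelial gene Cdh5 (10.13). Recurrent 1 stood apart for Mst1 (3.21) and recurrent 2 for Epcam (3.32), both within background. Primary 2 stood apart for Wnt2 (3.14), Heyl (3.45) and Pcdhb16 (3.50). Primary 4 stood apart for Sned1 (6.23), Sfrp1 (7.22) and Myh11 (4.06), primary 1 for Adam22 (7.60) and primary 3 for Hpn (3.76).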

How the results depend on the processing

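With the gap rule replaced by side means 2-fold apart and no overlap, 382 genes were higher and 374 lower on the Met-high arrays, and with a gap of 2 log2 units 20 and 17. Leaving out 1 recurrent array gave 249 to 421 higher and 280 to 424 lower, because a side then had 1 array. Centring or normalizing the arrays again gave 115 and 121 higher and 117 and 115 lower genes. With windows of 21 genes, 1 stretch was found in place of 11. A Met limit at the highest primary value (9.31) put all 4 recurrent arrays on 1 side and could give no value. For recurrent against primary cells, leaving out 1 array gave 99 to 197 higher and 104 to 223 lower genes, and an adjusted p under 0.01 gave 70 and 72. The replicate block gave 146 higher and 131 lower genes, although the numbers did not pair the arrays. For recurrent against residual cells, a fit on those groups alone gave 408 and 201, the replicate block 553 and 319, and an adjusted p under 0.01 gave 360 and 161. Leaving out 1 array there gave 572 to 834 higher and 364 to 491 lower genes. Why these counts moved was not tested. Counted per named gene and setting, 6 differences between sides moved by more than the spread between arrays and 1281 did not. A reversal was looked for only in genes that were apart, and 0 were found. Leaving out 1 array cannot move a difference past that spread or reverse a gene that is apart, so those settings could not show either. Signals under about 4 lie within background, where no difference could be read.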
